A study of Mus musculus with 4 samples.

Results

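The 9 genes described here handle iron in brain CD11b-positive cells: Fth1 and Ftl1 store it, Hmox1 releases it from heme, Trf and Tfrc bring it into cells, Slc11a1 and Slc11a2 move it out of endosomes and phagosomes, and Slc40a1 and Cp export it. They were chosen by name for these roles, as the rows whose Ensembl identifiers map to those symbols in GENCODE M21 on GRCm38, 9 of the 55471 genes counted. All 4 libraries belong to 1 group: CD11b-positive cells taken with magnetic beads from the brains of mice aged 10 to 13 weeks that received PLX5622, a blocker of the survival receptor CSF1R, for 7 days and then none for 10 days, 17 days in all. Strain, genotype and sex are not given in the labels used here, and no untreated group was analysed, so levels and their spread are given and no effect of the drug. The labels number the libraries 1 to 4 and do not say whether each came from its own animal, so each p-value reflects variation among these libraries, and that variation may be technical.

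Iron in cells is kept within narrow limits because free iron drives oxidative damage. Transferrin carries it in blood and extracellular fluid, the transferrin receptor takes the loaded protein into endosomes, and divalent metal transporters pass the released iron into the cytosol. Ferritin, a shell of heavy and light chains, stores it, and ferroportin, encoded by Slc40a1, is the known exporter. Iron regulatory proteins bind a hairpin in messenger RNA, the iron-responsive element, when iron is scarce: bound near the 5′ end it blocks translation, and bound in the 3′ untranslated region (UTR) of Tfrc it protects the message from decay. In the brain, microglia and other macrophages take up iron from cell debris and heme.

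The hairpins are shown because their place in the message differs among these genes. The transcripts were searched on the sense strand for C, any 5 bases, CAGTG and any 6 bases, with at least 4 of the 5 upper stem positions able to pair, G with U included. The capitals mark the bulged C and the loop, and coordinates are on GRCm38 with sequences from GENCODE M21 transcripts. The 3 genes below with the pattern in the 5′ UTR are the storage pair and the exporter, and each has 5 of 5 pairs.
Fth1, chr19:9982732-9982760, plus strand: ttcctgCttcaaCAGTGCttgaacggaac
Ftl1, chr7:45459779-45459807, minus strand: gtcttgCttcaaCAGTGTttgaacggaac
Slc40a1, chr1:45925465-45925493, minus strand: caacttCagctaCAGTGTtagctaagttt
The ferritin hairpins share 26 of 29 bases with each other, and each shares 13 of 29 with that of Slc40a1. In the 3′ UTR, Tfrc carries the pattern 4 times with 5 pairs each and Slc11a2 once with 4 pairs.
Tfrc, chr16:32631219-32631247, plus strand: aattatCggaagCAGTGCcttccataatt
Tfrc, chr16:32631598-32631626, plus strand: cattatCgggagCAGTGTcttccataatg
Tfrc, chr16:32631663-32631691, plus strand: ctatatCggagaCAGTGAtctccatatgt
Tfrc, chr16:32631710-32631738, plus strand: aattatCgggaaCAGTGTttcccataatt
Slc11a2, chr15:100395153-100395181, minus strand: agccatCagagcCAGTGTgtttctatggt
Of 21901 genes with a protein-coding transcript, 31 (0.142%) had the pattern with 5 pairs in a 5′ UTR and 130 (0.594%) had it with 5 pairs in a 3′ UTR. With 4 or more pairs it occurred in a 3′ UTR in 892 genes (4.07%), in coding sequence in 6.25% and anywhere in 10.7% of these genes. By letters and pairs alone, the 3′ UTR match of Slc11a2 and the coding match of Slc11a1 are of kinds found in many genes. Each of these matches has 4 pairs. The shares do not show whether either match works as an iron-responsive element. Trf, Hmox1 and Cp had no match to these letters. RNA levels do not show whether any of these hairpins was bound.

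Library totals lay between 23036202 and 24487418 counts. Levels are CPM, each gene's count per 1000000 counts of its library, after TMM scaling of the library totals in edgeR. All 10 homeostatic microglia markers were at 1 CPM or more in every library, with summed levels of 40181, 35060, 39079 and 32192 CPM in libraries 1 to 4. Markers of other cells were also present. Summed choroid plexus markers had 16151, 16131, 3357 and 22515 CPM, endothelial markers 1066, 1030, 222 and 954 CPM, and border-associated macrophage markers, genes of macrophages around vessels and in the meninges, 1615, 1153, 1168 and 989 CPM. Library 3 therefore stood apart by its low endothelial and choroid plexus marker sums, and library 1 had the highest macrophage marker sum. The largest part of the macrophage sum was Stab1, with 948, 834, 865 and 723 CPM. All 9 iron genes reached 1 CPM in every library, against 22.6% of all genes in the table, and all 9 stayed above 5 CPM. The lowest count behind any value was 322 reads, for Cp in library 3, which gives a counting error of 5.57%.

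The ferritin heavy chain gene was among the most abundant messages, and the light chain gene varied least. Fth1 (ENSMUSG00000024661, chr19:9980598-9985098), whose protein oxidises iron as it enters the shell, had 1764, 1625, 2242 and 1796 CPM in libraries 1 to 4, a mean of 1856 ± 267 (SD, n = 4). Library 3 was highest and the other 3 lay between 1625 and 1796 CPM. Ftl1 (ENSMUSG00000050708, chr7:45457944-45459884), whose protein promotes the iron core, had 196, 236, 225 and 224 CPM, a mean of 220.3 ± 16.9. Its coefficient of variation of 7.69% was the smallest of the 9 genes. The encoded proteins, translated from the annotated coding sequences, are 182 and 183 residues long and identical at 53.1% of 175 aligned positions. Divided by the union of annotated exons, Fth1 exceeded Ftl1 in every library, by 3.47-, 2.66-, 3.85- and 3.10-fold.

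That ferritin ratio rested on what was taken as the length and on reads shared with copies. Ftl1 has 7 other genes that match its transcript at 90% identity or more over 150 bases or more, 6 of them annotated as pseudogenes, and 30.1% of its 75-base windows occur in no other annotated gene. Fth1 has 1 such copy, and 97.7% of its windows are unique. The 7 copies of Ftl1 together had 0.764 CPM, 0.347% of the Ftl1 level. The copy with the most counts was the pseudogene Gm12164, at 0.282 CPM. On the opposite strand Gm10252 overlaps 355 exonic bases of Ftl1. How reads that fit several genes were counted, and with which strand setting, is not given in the sources. Reads fitting both Ftl1 and a copy may have been left out of the Ftl1 level. With the number of unique windows as the length, the ratio of Fth1 to Ftl1 had a mean of 1.64 ± 0.255 (n = 4), and with the RefSeq-paired transcripts it had 8.82 ± 1.37. The heavy chain was the higher of the pair under each of these lengths, by an amount these counts leave uncertain.

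Heme oxygenase 1 was the member with the second largest spread. Hmox1 (ENSMUSG00000005413, chr8:75093621-75100589) encodes the inducible enzyme that opens heme and frees its iron. It had 94.2, 92.0, 137 and 188 CPM in libraries 1 to 4, a mean of 128 ± 45.1. Library 4 was 2.04-fold above library 2, and libraries 1 and 2 were close together. The edgeR goodness of fit, which asks whether a gene spreads more than genes of its level, gave an adjusted p of 0.238 (unadjusted 0.0147), so the gene did not pass 0.05. It did not pass without library 1, 2, 3 or 4 either (adjusted p 0.142, 0.736, 0.118 and 1.00). Hmox2, the constitutive enzyme, whose protein is identical to that of Hmox1 at 47.8% of 289 aligned positions, had 164, 94.3, 123 and 96.5 CPM (adjusted p 0.824 in edgeR). Its highest library was the first, where Hmox1 was near its lowest.

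Transferrin was far more abundant than its receptor. Trf (ENSMUSG00000032554, chr9:103204001-103230444) encodes transferrin, which oligodendrocytes and the choroid plexus are known to make in the brain. It had 1896, 1738, 2180 and 1728 CPM, a mean of 1886 ± 211. Library 3 was the highest. Oligodendrocyte markers (8 of 8 at 1 CPM or more) summed to 878, 477, 396 and 609 CPM and choroid plexus markers (8 of 8) to the values given above, and both sums were lowest in library 3. The level of Trf in library 3 was 1.22-fold the mean of the other libraries, while the median choroid plexus marker was at 0.193 of it and the median oligodendrocyte marker at 0.853. Which cells carried Trf was not tested. In GENCODE M21 the readthrough gene Gm20425 shares 2108 exonic bases with Trf, leaving 21.4% of its 75-base windows unique. Gm20425 is not among the 55471 genes counted.

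Tfrc (ENSMUSG00000022797, chr16:32608920-32632794), the transferrin receptor, had 51.4, 50.5, 32.4 and 38.2 CPM, a mean of 43.1 ± 9.35. Libraries 1 and 2 were the higher and library 3 the lowest, and the edgeR test gave an unadjusted p of 0.342. Endothelial cells of the brain also carry the receptor, and their markers were lowest in library 3 too. Their part in the Tfrc level was not tested. Per kilobase of exons, Trf stood 68.7-, 64.2-, 126- and 84.2-fold above Tfrc.

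The transporters of the Slc11 family, which share 63.6% of 547 aligned residues, differed widely in level. Slc11a1 (ENSMUSG00000026177, chr1:74375195-74386062), also known as NRAMP1, pumps metal out of the phagosomes of macrophages. It had 235, 358, 436 and 357 CPM, a mean of 347 ± 82.9. Library 1 was the lowest and library 3 the highest. The interferon response markers (8 of 8 detected) had the same extremes, with sums of 122, 231, 554 and 369 CPM. Among all genes tested, 31% were lowest in library 1 and 28.3% were highest in library 3. The part of the interferon response in the Slc11a1 level was not tested, and Slc11a1 did not pass the edgeR test (adjusted p = 0.849). Slc11a2 (ENSMUSG00000023030, chr15:100387898-100425072), also known as DMT1, releases transferrin-borne iron from endosomes. It had 36.6, 45.1, 42.4 and 43.8 CPM, a mean of 42.0 ± 3.75. Gm5475 overlaps 402 of its exonic bases on the opposite strand. Per kilobase, Slc11a1 was 11.0-, 13.6-, 17.7- and 14.0-fold above Slc11a2.

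The exporter stood apart in library 1 and its partner oxidase in library 3. Slc40a1 (ENSMUSG00000025993, chr1:45908068-45926523), ferroportin, had 212, 154, 148 and 144 CPM, a mean of 164 ± 32.1, or 148.4 without library 1. Library 1 was 1.43-fold above the mean of the others, and the other 3 lay between 144 and 154 CPM. All 8 border-associated macrophage markers were also highest in library 1, none was at 0, and the median marker there was 2.34 times its mean in the other libraries. Erythroid markers (5 of 6 detected) summed to 365, 175, 32.4 and 66.0 CPM, with all 5 tested highest in library 1 and a median of 3.24 times the other libraries. Of the 8 oligodendrocyte markers, 7 were highest there, with a median of 1.67 times. Homeostatic microglia markers were highest there for 5 of 10, with a median of 1.15 times. Endothelial markers were highest there for 4 of 8 (median 1.46 times) and pericyte and smooth muscle markers for 3 of 8 (1.47 times). Monocyte markers were highest there for 4 of 5 (1.46 times) and choroid plexus markers for 0 of 8 (0.985 times). Among all genes tested, 34.2% were highest in library 1. The part of any of these cell types in the Slc40a1 level was not tested. The edgeR test gave Slc40a1 an unadjusted p of 0.369.

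Cp (ENSMUSG00000003617, chr3:19957054-20009145) encodes ceruloplasmin, the copper oxidase that loads exported iron onto transferrin, known in the brain from astrocytes. It had 53.5, 50.2, 14.2 and 40.1 CPM, a mean of 39.5 ± 17.8. Library 3 was 3.38-fold below the mean of the others, with a 95% Poisson interval of 12.7 to 15.8 CPM against 37.7 to 42.7 CPM in library 4, the next lowest. Cp was the 1 of 9 genes past the threshold (edgeR goodness of fit, adjusted p = 0.00801), and 3.28% of the 14112 genes tested passed it. Without library 3 the call was lost (adjusted p = 1.00), and none of the 9 genes was called, against 0.716% of all genes. At an unadjusted p under 0.05 that fit had 1 of the 9, Hmox1, against 6.8% of all genes. Without library 1, 2 or 4 Cp was again the 1 gene called (adjusted p 0.0105, 0.0444 and 0.0173), against 2.98%, 1.94% and 1.82% of all genes. The quasi-likelihood variance test called 0 of the 9 and 0 of all genes, with Cp alone of the 9 at an unadjusted p under 0.05 (0.0217), against 4.66% of all genes. DESeq2 marked 0 of the 9 as dispersion outliers, against 0.0354% of all genes. At an unadjusted p under 0.05 the edgeR test had 2 of 9, Cp and Hmox1, against 9.57% of all genes.

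In library 3 the low Cp went with low markers of several other cells. All 8 endothelial and all 8 choroid plexus markers passed the same test and were lowest there. Pericyte and smooth muscle markers (7 of 8 detected) summed to 680, 641, 100.6 and 442 CPM and leptomeningeal fibroblast markers (4 of 6 detected) to 48.1, 43.8, 12.2 and 51.6 CPM, with no marker at 0 in all libraries. Astrocyte markers (7 of 7 detected) summed to 279, 217, 250.4 and 307 CPM, with 4 of the 7 lowest in library 3 and the median marker at 0.659 of its mean in the other libraries. The part of these cells in the Cp level was not tested, and in bulk RNA fewer cells of a type cannot be told from less RNA per cell. The 108 bases that Cp shares with Hps3 on the opposite strand are a small part of its 9566 exonic bases.

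**Figure D1:**
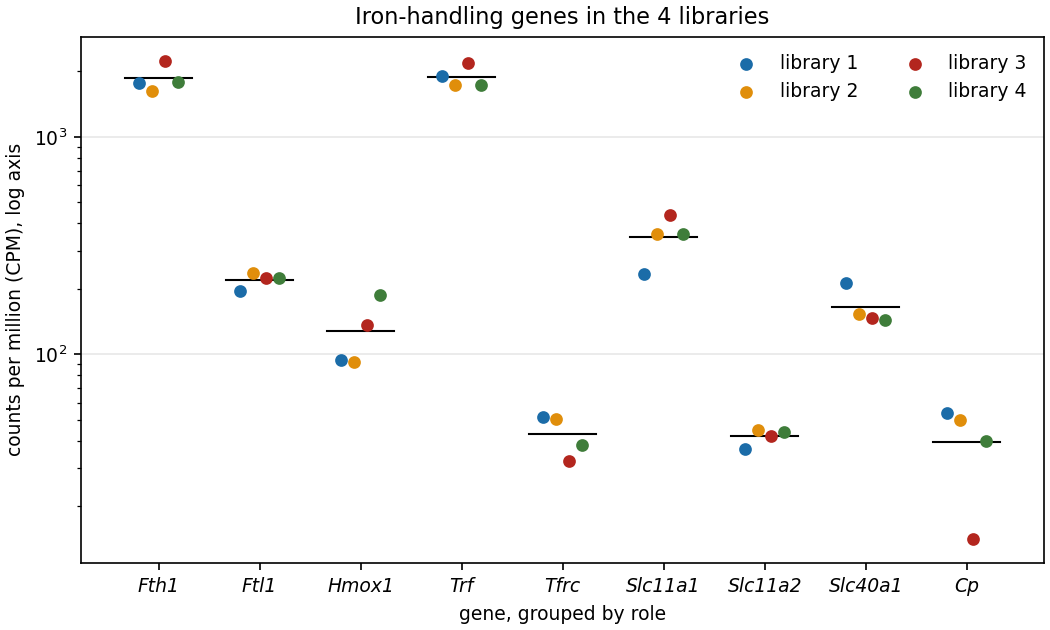
Level of each gene in CPM (log axis), 1 point per library and a bar at the mean of the 4 libraries. Cp in library 3, at 14.2 CPM, lies farthest from its other points, and Slc40a1 in library 1, at 212 CPM, stands above its other 3.

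The 9 genes had no common order over the libraries. Of the 9, 3 were highest in library 1, 2 in library 2, 3 in library 3 and 1 in library 4, and among all genes tested the shares were 34.2%, 16.5%, 28.3% and 20.9%. The lowest library was the first for 3, the second for 2, the third for 2 and the fourth for 2 (31%, 19.5%, 29.2% and 20.3% of all genes). The median ratio of highest to lowest library was 1.47 over the 9 genes and 1.43 over all genes tested.

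**Figure D2:**
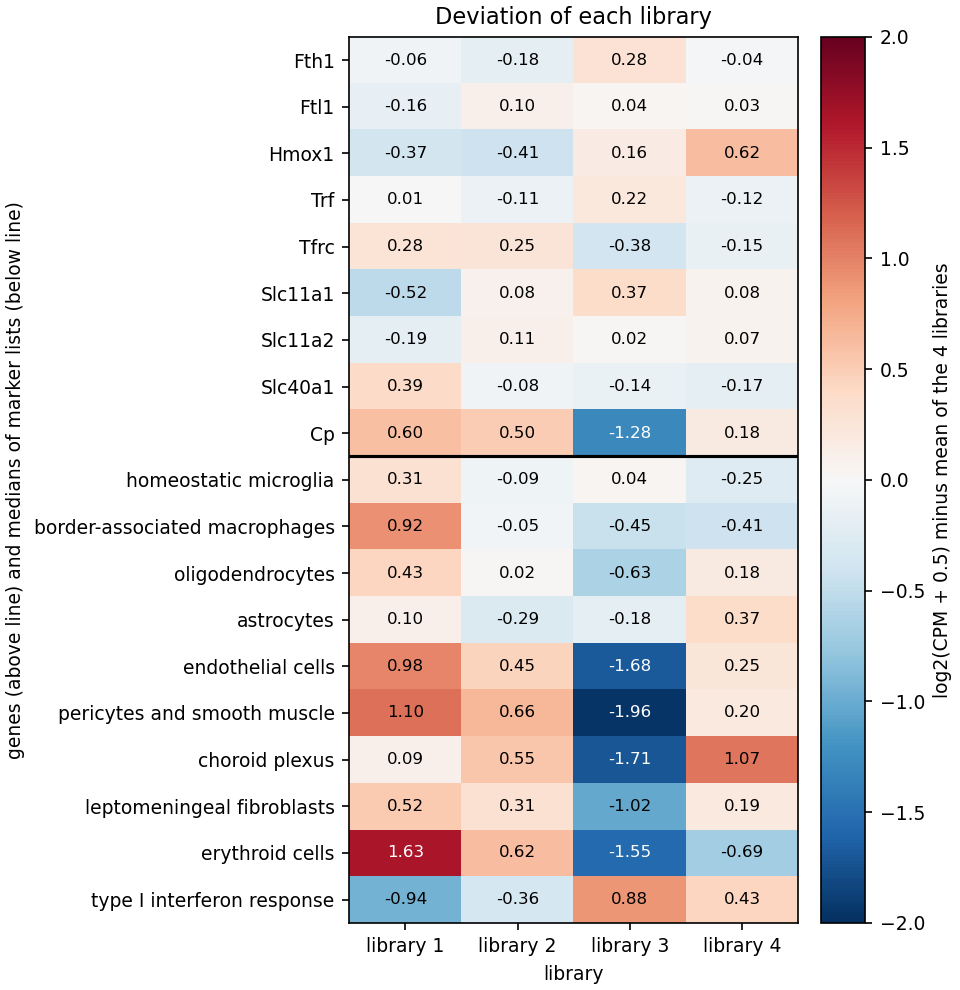
Each cell gives log2(CPM + 0.5) in a library minus the mean of the 4 libraries, for the 9 iron genes above the line and for the medians of marker lists below it, red for above and blue for below the mean. Cp is at -1.28 in library 3, where the endothelial, pericyte and choroid plexus medians lie between -1.96 and -1.68, while Trf is at 0.22 and the astrocyte median at -0.18.

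Ordered by CPM per kilobase of exons, Trf came first with 568 ± 63.5, then Fth1 with 535 ± 77.0, Ftl1 with 164 ± 12.6, Slc11a1 with 93.6 ± 22.4, Hmox1 with 73.0 ± 25.7, Slc40a1 with 18.3 ± 3.56, Tfrc with 6.97 ± 1.51, Slc11a2 with 6.603 ± 0.589 and Cp with 4.13 ± 1.86. Among 21974 protein-coding genes ranked this way, Trf was at place 47, Fth1 at 52, Ftl1 at 182, Slc11a1 at 326 and Hmox1 at 437. Slc40a1 was at place 2494, Tfrc at 5740, Slc11a2 at 5935 and Cp at 7585. The ranges of Trf and Fth1 overlapped, as did those of Slc11a1 and Hmox1 and those of Tfrc and Slc11a2. The other neighbours did not overlap. The order at both ends depended on the length used. Fth1 came first with 1998 ± 288 CPM per kilobase of its RefSeq-paired transcript, 929 bases against 3469 for the union of its exons, and Trf then had 733 ± 82.0. Tfrc came last on that scale with 8.82 ± 1.91, below Cp with 9.65 ± 4.35. Slc40a1 remained above Tfrc, by 2.83-, 2.10-, 3.14- and 2.58-fold in libraries 1 to 4 per kilobase of exons and by a mean of 5.62-fold per RefSeq-paired length.

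**Figure D3:**
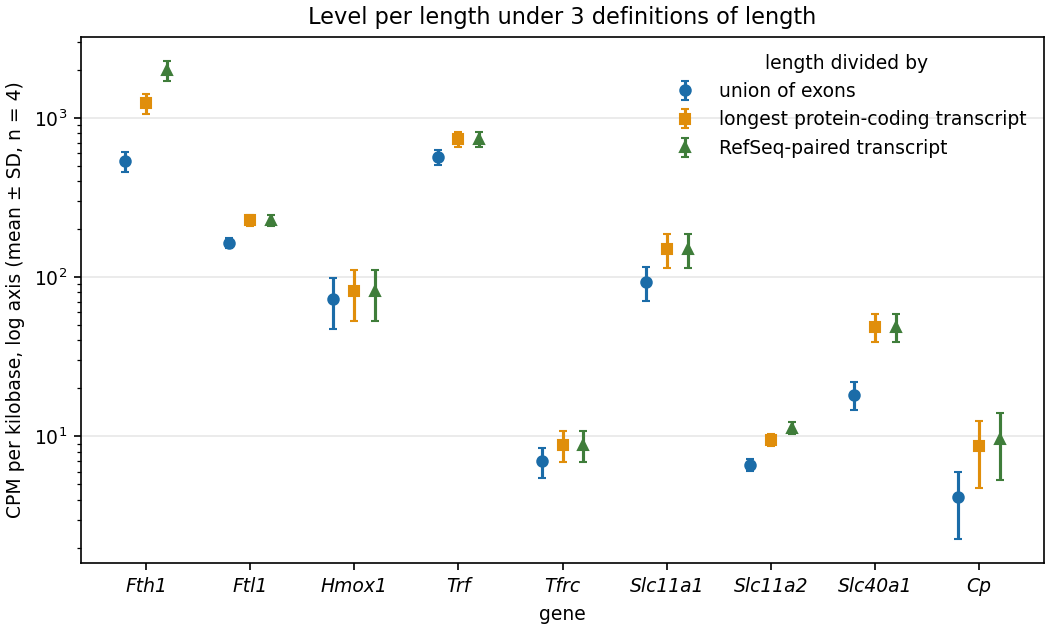
Mean and SD over 4 libraries of CPM per kilobase (log axis), with 3 definitions of the length of each gene. Fth1 moves most, from 535 to 1998, while Hmox1 lies between 73.0 and 81.4.

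The rest of the pathway was read in 60 further genes, 50 of them at 1 CPM or more in every library and 52 tested. Their median ratio of highest to lowest library was 1.41. The iron regulatory protein genes Aco1 and Ireb2 had 50.4 ± 1.59 and 124 ± 3.49 CPM, and Fbxl5, which marks the protein of Ireb2 for breakdown, had 87.6 ± 9.93 CPM. None of these 3 passed the edgeR test, none had an unadjusted p under 0.05, and the quasi-likelihood test called 0 of the 52 tested, with 7 at an unadjusted p under 0.05 (4.66% of all genes). The iron chaperones for ferritin Pcbp1 and Pcbp2 had 192 ± 20.7 and 313 ± 69.5 CPM, and Ncoa4, the receptor for ferritin breakdown, had 15.4 ± 1.93 CPM. Slc25a37, a mitochondrial iron importer, had 197 ± 22.9 CPM, Ppox of heme synthesis had 94.7 ± 6.76 CPM and Nfe2l2, the NRF2 transcription factor that induces Hmox1 and ferritin, had 278 ± 22.5 CPM. Lrp1, a receptor for heme bound to hemopexin among other ligands, had 877, 1400, 1569 and 1327 CPM. Hfe, whose protein binds the transferrin receptor, had 149, 111, 110 and 110 CPM, high in library 1 as Slc40a1 was. Hamp, the gene of the hormone hepcidin that removes ferroportin from the membrane, had no count in libraries 1 to 3 and 0.0794 CPM in library 4, below the limit of 0.119 CPM that 3 counts set there.

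Of the 52 tested genes, 6 passed the threshold in edgeR, against 3.28% of all genes, and 10 had an unadjusted p under 0.05, against 9.57%. Of the 6, 5 were low in library 3. Epas1, a hypoxia factor whose message carries an iron-responsive element, had 238, 341.5, 57.9 and 272 CPM (adjusted p = 3.18e-07). Steap1 and Steap2, of a family that includes metalloreductases, had 28.1, 18.3, 3.87 and 26.9 CPM (adjusted p = 0.00104) and 43.8, 70.5, 13.4 and 105 CPM (1.17e-07). Bmp6, a signal for hepcidin made by endothelial cells in the liver, had 19.1, 29.9, 6.69 and 37.0 CPM (0.0039), and Alas2, the erythroid enzyme of heme synthesis, had 9.02, 8.51, 1.06 and 3.85 CPM (0.0491). Without library 3 all 5 lost the call, with adjusted p of 1.00, 1.00, 0.126, 0.75 and 0.551 for Epas1, Steap1, Steap2, Bmp6 and Alas2. Alas2 also lost it without library 1, 2 or 4 (0.163, 0.237 and 0.0702) and with DESeq2 size factors, total counts or no filter (0.0511, 0.0565 and 0.0942), and Bmp6 without library 4 (0.112). The vascular and choroid plexus markers given above, and the erythroid markers, of which Alas2 is itself one, were lowest in the same library. Their part in these levels was not tested.

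The sixth gene, Cd163, the scavenger receptor for hemoglobin bound to haptoglobin, had 69.0, 32.6, 24.5 and 27.2 CPM (edgeR adjusted p = 0.0423) and was 2.46-fold higher in library 1 than the mean of the others. It is itself one of the 8 border-associated macrophage markers. Without library 1, 2 or 4 the call was lost (adjusted p 1.00, 0.0742 and 0.137), as it was with DESeq2 size factors or no filter (0.0584 and 0.0993), and without library 3 it held (0.0207). No gene of the regulatory protein, chaperone, heme synthesis, mitochondrial or NRF2 groups passed the edgeR test. Among them Nqo1 alone had an unadjusted p under 0.05, with 6.32, 7.21, 1.497 and 11.4 CPM (adjusted p 0.121).

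**Figure D4:**
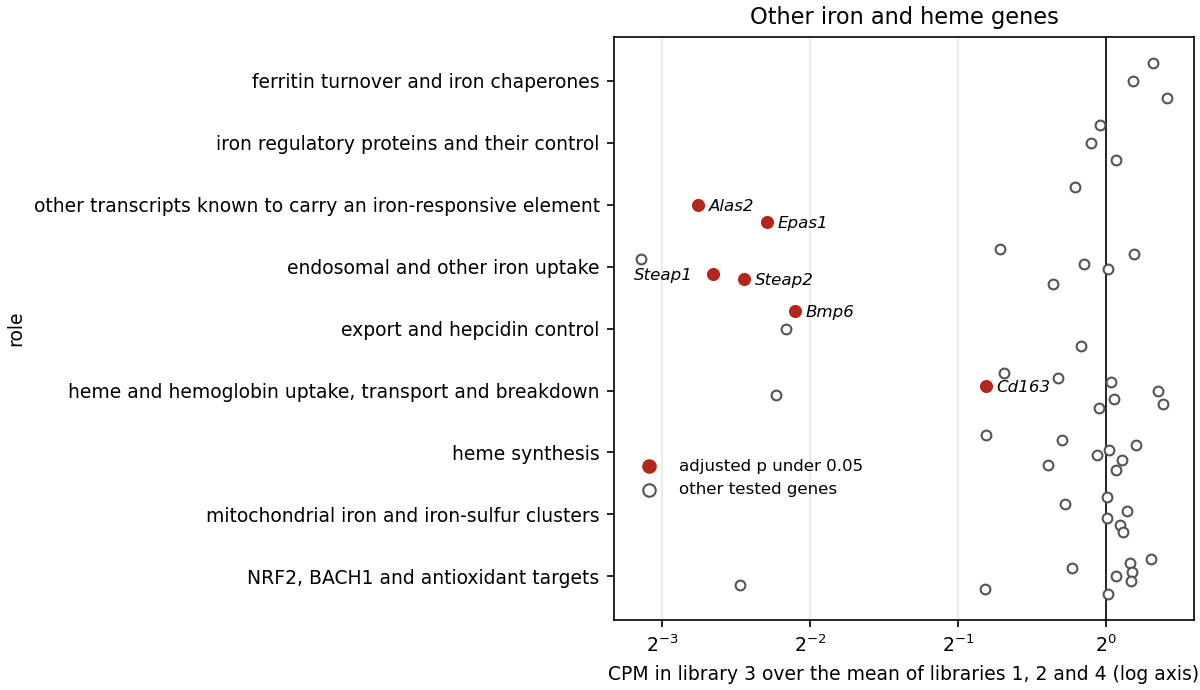
CPM in library 3 over the mean of libraries 1, 2 and 4 (log axis) for 52 tested iron and heme genes by role, filled red where the edgeR adjusted p was under 0.05. Of the 6 red genes, 5 lie between 0.148 and 0.234, and Cd163 lies at 0.57.

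For the 3 genes with the largest spread, the protein-coding genes with the closest profile were found among 9158 others at a mean of 10 CPM or more, by the root mean square difference of centred log2(CPM + 0.5) over the 4 libraries. With 4 libraries there are few free differences, so close matches are common and describe these libraries only. Closest to Cp were the endothelial adhesion gene Pecam1 (0.0296), the glucose transporter gene Slc2a1 (0.0473) and Sparcl1 (0.077). Pecam1 had 90.9, 90.3, 25.01 and 70.6 CPM. Among the 14 marker lists the nearest was that of leptomeningeal fibroblasts (0.168), led by Col1a2 at 19.1 ± 9.09, Pdgfra at 7.99 ± 4.70 and Dcn at 5.68 ± 3.29 CPM, and then the endothelial list (0.276). Closest to Slc11a1 were the phospholipase gene Plcb2 (0.00489), the lysosomal mannosidase gene Man2b1 (0.0164) and the lysosomal nucleoside transporter gene Slc29a3 (0.0184). Its nearest list was that of lymphocytes, at 0.364, whose highest gene Nkg7 had only 1.52 CPM. Closest to Hmox1 were the histone deacetylase gene Hdac4 (0.18), Slc1a2 (0.186) and the chaperone gene Hsp90aa1 (0.203), all farther off than the matches of Cp or Slc11a1. Its nearest list was that of astrocytes (0.325), led by Slc1a3 at 147 ± 17.3, Slc1a2 at 39.9 ± 9.29 and Gja1 at 22.1 ± 7.34 CPM.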

How the data were processed

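RNA of CD11b-positive brain cells was sequenced per the labels' protocols: poly(A) selection of 300 ng RNA and a directional kit. The authors deposited raw counts per Ensembl gene, 1 column per library. STAR 2.7.2b, featureCounts 1.6.5 and the build GRCm38 are named in the submitters' processing notes, where the roles of the tools are not stated. The sources used here do not give the annotation release, the strand setting or the treatment of multi-mapping reads. Genes with close copies or an overlapping antisense gene are therefore uncertain in level.

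From the counts, CPM on TMM-scaled library sizes were computed in edgeR 4.0.16 (R 4.3.3). Of 55471 genes, 55230 matched GENCODE M21, the annotation used for this work, and the other 241 held at most 0.00526% of a library. For the spread, filterByExpr kept 14112 genes, and edgeR's goodness of fit compared each gene's deviance in an intercept-only model at the trended dispersion with chi-square (3 degrees of freedom). P-values were Benjamini-Hochberg adjusted, with calls under 0.05. As 1 group holds no contrast, the quasi-likelihood variance against its prior, and dispersion outliers in DESeq2 1.42.0, were alternatives. Exact Poisson intervals at 95% and the floor of 3 counts cover counting error alone, because reads without molecular identifiers can include PCR copies, and the labels name no such identifiers. Copies were found with BLAST 2.17.0, in annotated transcripts only. Protein identity was computed with Biopython 1.88.

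Genes named beyond the 9 were the highest per kilobase of each further iron list, those past the threshold, and the closest profiles; Ncoa4, Aco1, Fbxl5, Hmox2, Pcbp2, Hamp and Nqo1 were added after their values were seen. The members, lists and tests were chosen with earlier results of these data known. The alternatives were other scalings, no expression filter, each library left out, other lengths and looser copy matches. A few genes and sequences of these lists are not reported here.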

Additional observations from a re-analysis of the deposited data

Results flagged for a closer look

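In 26 sets of 4 values (the 9 iron genes, 13 further named genes and 4 ratios), the gap between the extreme library and its neighbour was compared with Dixon's 95% critical value for 4 samples. Chance alone passes it in about 1 of 20 sets. Library 1 passed it for Slc40a1, with 212 CPM and a gap of 0.853 of the range, and for Hfe, with 149 CPM and a gap of 0.979. Neither gene passed the edgeR test of spread (unadjusted p 0.369 and 0.548). In that library all 8 border-associated macrophage markers, all 5 tested erythroid markers and 7 of 8 oligodendrocyte markers were highest (medians of 2.34, 3.24 and 1.67 times the other libraries). So were 5 of 10 homeostatic microglia markers (median of 1.15 times) and 34.2% of all genes tested. Endothelial markers were highest there for 4 of 8 (1.46 times) and pericyte and smooth muscle markers for 3 of 8 (1.47 times). Monocyte markers were highest there for 4 of 5 (1.46 times) and choroid plexus markers for 0 of 8 (0.985 times). The part of any of these cell types in either level was not tested.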

How the results depend on the processing

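No paired analysis was possible because all 4 libraries belong to 1 group. The 9 mean levels stayed within 1 SD of the reported value under total counts, DESeq2 size factors, scaling to homeostatic markers, each library left out and copies added (72 of 72). Leaving out 1 of 4 libraries cannot move a mean by 1 SD, so those checks could not fail. The scalings all share the same geometric mean of library size, so the means could change little under them either. The counted copies came to at most 0.347% of a member's level, so adding them could change little. All 9 genes were detected with total counts and at 5 CPM. The count of 1 gene past the threshold was also 1 under both other scalings and with no filter, ranged from 0 to 1 with 1 library left out (0 without library 3), and was 0 in the quasi-likelihood test and 0 in DESeq2. For the further iron genes the count of 6 ranged from 1 (without library 3) to 4 with 1 library left out (3 without library 4), and was 5 with total counts, 4 with DESeq2 size factors, 4 with no filter and 0 in the quasi-likelihood test and DESeq2. The ratio of Fth1 to Ftl1 moved from 3.27 to 5.48 with the longest transcript, 8.82 with the RefSeq-paired transcript and 1.64 with unique windows, and that of Slc40a1 to Tfrc from 2.66 to 5.62 with either transcript length. The RefSeq and window lengths were chosen after seeing the data. At 80% identity over 100 bases the matching genes numbered 3 for Fth1, 35 for Ftl1, 1035 for Slc11a1 and 33 for Slc11a2, where the cause was not tested. Counting depth did not limit the 9 genes, whose lowest count was 322.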

Other observations

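Among the 60 further iron genes, the hairpin pattern with 5 pairs lay in the 5′ UTR of Alas2, which is known for it. Its element is shown beside those of the storage genes, with the same capitals.
Alas2, chrX:150547458-150552149, plus strand, across an exon junction: ttggttCgtcctCAGTGCagggcaacagg
Matches with 4 pairs lay in the 3′ UTR of Bach1, the heme-sensing repressor of Hmox1, at 144 CPM, and of Gclm of glutathione synthesis at 24.9 CPM. A 3′ UTR match with 4 or more pairs was found in 4.07% of the genes searched. Epas1 had no match to these letters.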
